A study of Mus musculus with 3 samples.

Results

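The surface mucins of the cornea, Muc1, Muc4, Muc15, Muc16 and Muc20, were followed through the layers of the mouse corneal epithelium in uninjured and chemically injured eyes. They were chosen by gene symbol, and all 5 were found among the 32285 genes of the count tables, each in 1 row. Single cells came from cornea and limbus, the border between cornea and conjunctiva, of wild-type mice, as 1 droplet library per group. The groups were eyes injured with nitrogen mustard (NM, a blistering agent) and treated with losartan, an angiotensin II receptor blocker, eyes injured with NM and treated with saline, and uninjured eyes. The genotype of all 3 was labelled wt, and most of the conjunctiva had been dissected away before digestion with liberase and trypsin. The sources used here do not state the number of mice in a library, their age, the time after injury or the dose and route of losartan. With 1 library per group there was no test between groups, so values carry 95% intervals that cover counting error only and say nothing of the spread between mice.

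Membrane mucins are long, heavily O-glycosylated proteins that stand on the ridges of the outermost corneal cells, where they hold the tear film, keep pathogens and particles off and make the surface slippery. They pass the membrane and have a short tail inside the cell, and their outer parts can be cut off and shed into the tears. The corneal epithelium renews itself from basal cells, which move up through wing cells and flatten into superficial cells before they are shed.

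Muc1, an adhesion-blocking mucin with a signalling tail, lies on chromosome 3 of GRCm38 from 89229057 to 89233381 on the plus strand. Muc4, a large mucin that binds the receptor Erbb2, lies on chromosome 16 from 32735886 to 32782391 on the plus strand. Muc20, a small mucin first described in kidney, lies beside it on the minus strand from 32777419 to 32797435, so the pair share 4973 bases, of which 627 are in exons of both. Muc15, a small membrane mucin, lies on chromosome 2 from 110721340 to 110739527 on the plus strand, inside the gene Ano3 on the other strand. Muc16, the giant mucin that carries the CA125 antigen and is the main barrier mucin of the human ocular surface, lies on chromosome 9 from 18495455 to 18674530 on the minus strand. The sources used here do not say whether counting used the strand, so reads from the shared bases of Muc4 and Muc20 may be assigned to either gene.

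The upstream sequences of Muc1, Muc4 and Muc20 are shown because these were the 3 mucins past 1.5-fold between libraries at 10 CPM (UMI counts per 1000000 UMIs of the group) or more in either. RefSeq upstream sequence on GRCm38.p6 was matched for 4 of the 5 mucins. Each line below gives the 250 bases before the RefSeq start, 5′ to 3′ on the gene's own strand, at chr3:89228806-89229055 (plus), chr16:32735636-32735885 (plus) and chr16:32797436-32797685 (minus). Capitals mark matches, on either strand, to TATAA (core promoter), CACCC (the core of Krüppel-like factor motifs) and AGGAAG (an ETS-family motif core).
Muc1: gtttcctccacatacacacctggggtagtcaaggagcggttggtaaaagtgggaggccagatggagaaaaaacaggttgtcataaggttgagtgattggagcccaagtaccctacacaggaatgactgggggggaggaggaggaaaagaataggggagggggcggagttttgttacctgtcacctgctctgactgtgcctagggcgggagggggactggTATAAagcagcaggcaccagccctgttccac
Muc4: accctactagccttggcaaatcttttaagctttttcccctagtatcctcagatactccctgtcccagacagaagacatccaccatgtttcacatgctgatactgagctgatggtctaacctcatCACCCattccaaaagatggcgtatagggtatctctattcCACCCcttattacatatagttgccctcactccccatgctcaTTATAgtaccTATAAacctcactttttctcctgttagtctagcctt
Muc20: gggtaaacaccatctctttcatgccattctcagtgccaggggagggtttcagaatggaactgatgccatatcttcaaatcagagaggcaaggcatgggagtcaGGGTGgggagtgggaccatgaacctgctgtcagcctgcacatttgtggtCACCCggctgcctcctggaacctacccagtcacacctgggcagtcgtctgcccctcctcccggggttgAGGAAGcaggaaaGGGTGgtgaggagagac
Muc1 had 1 TATAA match, beginning 31 bases before the start, and no CACCC or AGGAAG match in this window. Muc4 had 2 TATAA matches, beginning 46 and 36 bases before the start, and 2 CACCC matches. Muc20 had no TATAA match, 3 CACCC matches and 1 AGGAAG match. The Muc16 window, not shown, had 1 CACCC match. TGANTCA, the AP-1 motif, matched in none of these 4 windows. Over 32851 upstream windows of the same length, 22.8% held TATAA, 52.0% CACCC, 29.5% AGGAAG and 6.75% TGANTCA on either strand. TATAA and CACCC overlap neither each other nor AGGAAG in the windows shown.

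Of 4919 kept losartan cells, 1957 were epithelial-like, as were 1124 of 5800 saline and 9858 of 11233 uninjured cells. They held 61303457, 41270111 and 136948216 UMIs (unique molecules). Cells were placed by a score, superficial minus basal markers, computed within each library without any mucin, and cut into equal lower, middle and upper terciles. These are ranges of a score and not cell types, and 109 of 1957, 53 of 1124 and 499 of 9858 cells lay within 0.1 score units of the upper boundary. The summed level of the basal markers was higher in the upper than in the lower tercile of both injured libraries. It was 23062 against 19292 CPM in the losartan library and 27369 against 19317 CPM in the saline library. In the uninjured library it was 11900 against 12543 CPM. Such a sum is weighted to the most abundant markers, unlike the score. All 11 basal markers reached 10 CPM in each lower tercile, against 8 (losartan), 9 (saline) and 9 (uninjured) in the upper. Superficial markers, which help define the score, summed to 7516 CPM in the upper and 689 CPM in the lower losartan tercile. These sums were 9995 and 675 CPM in the saline library and 25150 and 6650 CPM in the uninjured library. The same tercile held different cells in different libraries. Cluster 6 held 87.3% of the upper tercile in the losartan library and 88.8% in the saline library, whereas the uninjured upper tercile came mainly from clusters 9, 5, 13 and 15. Lypd2 and Slurp1, 2 of the 12 superficial markers, were seen in under 5% of saline epithelial cells and were not used there. Median depth in the upper tercile was 30080, 33115 and 15193 UMIs, and libraries shared between 7 and 28 cell barcodes.

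Muc4 was concentrated in the uppermost cells of all 3 libraries. Its level in the upper tercile was 720.4 CPM (709.1 to 731.7) in the losartan library, 753.7 CPM (741.1 to 766.4) in the saline library and 1087 CPM (1079 to 1096) in the uninjured library. In the lower tercile it was 1.28, 0.54 and 7.26 CPM in the same order of libraries. The upper tercile held 99.0%, 99.5% and 98.9% of all epithelial Muc4 UMIs. The upper-to-lower ratio was 561-fold (388 to 844) in the losartan library, 1404-fold (739 to 3070) in the saline library and 150-fold (132 to 170) in the uninjured library. These ratios rest on 28, 9 and 251 UMIs in the lower tercile. Uninjured stromal fibroblast-like cells, which should lack the gene, also gave 7.0 CPM (4.65 to 10.1) of Muc4, so the uninjured lower tercile did not stand above them.

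Muc20 was likewise concentrated at the top. It was at 83.2 CPM (79.4 to 87.1) in the upper tercile of the losartan library, 170.1 CPM (164.2 to 176.3) in that of the saline library and 102.4 CPM (99.8 to 105.1) in that of the uninjured library. Its lower tercile gave 0.32, 0.42 and 0.84 CPM, and the upper tercile held 98.1%, 99.6% and 98.4% of its epithelial UMIs. The ratio was 259-fold (125 to 645), 407-fold (197 to 1014) and 122-fold (85.0 to 182.6). These ratios rest on 7, 7 and 29 UMIs in the lower tercile. Its levels there were not above those of losartan fibroblast-like cells at 0.48 CPM (0.16 to 1.12), saline neutrophil-like cells at 0.67 CPM (0.29 to 1.32) and uninjured fibroblast-like cells at 1.00 CPM (0.27 to 2.56). For every Muc20 UMI the upper tercile held 8.66 Muc4 UMIs in the losartan library, 4.43 in the saline library and 10.6 in the uninjured library, so the pair did not keep 1 ratio across libraries.

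Muc1 was also highest in the upper tercile, at levels that differed widely between libraries. Its upper tercile was at 53.5 CPM (50.5 to 56.7) in the losartan library, 132.0 CPM (126.7 to 137.4) in the saline library and 5.43 CPM (4.85 to 6.07) in the uninjured library. The lower tercile gave 1.15, 2.63 and 0.52 CPM, from 25, 44 and 18 UMIs. The ratio was 46.7-fold (31.5 to 72.4), 50.3-fold (37.3 to 69.4) and 10.4-fold (6.50 to 17.8). The uninjured value rests on 314 Muc1 UMIs in 3286 upper cells.

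Muc15 was high in the upper tercile and reached further into the middle tercile than Muc4 and Muc20. It was at 180.3 CPM (174.7 to 186.0) in the losartan library, 131.0 CPM (125.8 to 136.4) in the saline library and 190.3 CPM (186.8 to 193.9) in the uninjured library, against 2.06, 2.45 and 4.86 CPM in the lower tercile. The ratio was 87.4-fold (65.2 to 120.0), 53.6-fold (39.4 to 74.8) and 39.2-fold (33.6 to 45.9). Its middle tercile already held 60.5 CPM (57.0 to 64.3), 34.5 CPM (30.1 to 39.3) and 23.3 CPM (21.9 to 24.7). That was 21.2%, 8.39% and 8.49% of its epithelial UMIs, whereas the middle tercile held 0.80%, 0.39% and 0.75% of those of Muc4 and 1.57%, 0.19% and 1.08% of those of Muc20. For Muc1 the middle share was 5.48%, 1.94% and 8.03%. In the uninjured library the lower tercile held 4.99% of Muc1 UMIs against 1.38% of Muc15 UMIs. That Muc1 share was 18 UMIs at 0.52 CPM (0.31 to 0.82). Uninjured fibroblast-like cells gave 0.25 CPM (0.0063 to 1.39) of Muc1 from 1 UMI, so the lower tercile did not stand above them. The middle tercile held 28.9% of all epithelial UMIs in the losartan library, 15.5% in the saline library and 32.5% in the uninjured library, at median depths of 24846, 1993 and 13507 UMIs per cell, so its shares were not compared between libraries. Ano3, which encloses Muc15 on the other strand, ran the other way in the injured libraries, with 5.55 CPM in the upper and 23.6 CPM in the lower tercile of the losartan library and 3.37 and 39.5 CPM in those of the saline library. In the uninjured library Ano3 was at 1.16 CPM in the upper and 0.55 CPM in the lower tercile.

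Muc16 was close to the limit of detection in uninjured epithelium, with 9 UMIs in 9858 cells, of which 4 were in the upper and 3 in the lower tercile. In the injured libraries it was low but present. The losartan library had 169 UMIs, at 4.82 CPM (3.94 to 5.83) in the upper and 0.73 CPM (0.42 to 1.19) in the lower tercile. The saline library had 76 UMIs, at 2.65 CPM (1.96 to 3.52) in the upper and 1.01 CPM (0.59 to 1.62) in the lower tercile. The upper-to-lower ratio was 6.57-fold (3.86 to 11.9) in the losartan library and 2.62-fold (1.48 to 4.85) in the saline library. The upper tercile held 62.1% and 63.2% of its UMIs, a smaller part than for the other 4 mucins.

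**Figure D1:**
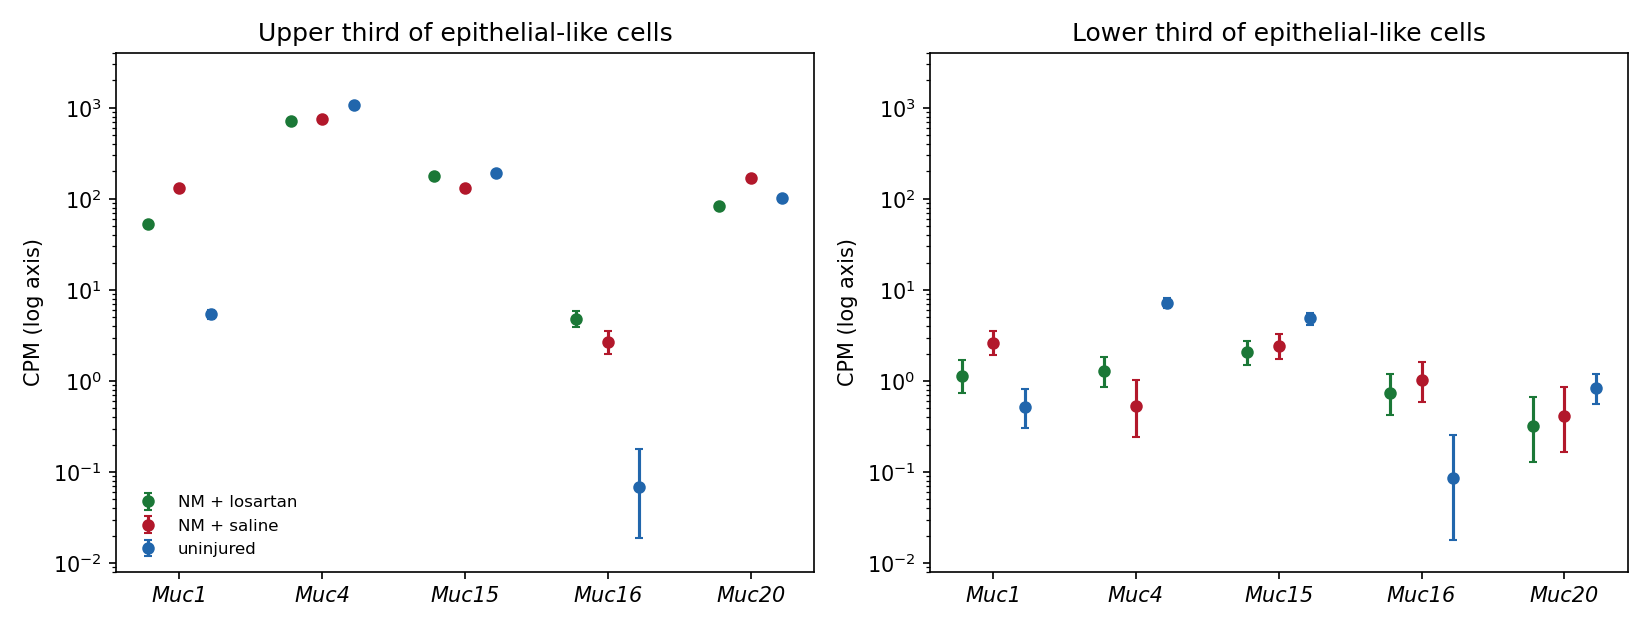
Level of each mucin in the upper (left) and lower (right) tercile of epithelial-like cells, in CPM on a log axis; points are single libraries and bars are 95% intervals for counting error only. Muc1 and Muc16 stand higher in both injured libraries than in the uninjured library on the left, and no point on the right passes 7.26 CPM.

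A mucin was counted as different between groups when its CPM + 5 differed by 1.5-fold or more, and genes at 10 CPM or more in either group were taken as measured. Of the 5 mucins, 5 were higher in the upper than in the lower tercile by this rule in the losartan library, 4 in the saline library and 4 in the uninjured library, and 0 were lower. Muc16 was the exception in the saline and uninjured libraries. Muc16 in the losartan library and Muc1 in the uninjured library passed the fold at under 10 CPM, so they lie outside the measured genes whose shares follow. Among all measured genes outside the layer markers, 13.6%, 14.2% and 10.9% were higher and 52.3%, 51.2% and 40.9% lower, and the median gene was lower in the upper tercile by a log2 ratio of −0.64, −0.62 and −0.44. These shares depend on the scaling. With median-of-ratios scaling 1947 genes were higher and 2703 lower in the losartan library, where CPM gave 1161 and 4454. The counts were 2049 and 2896 against 1260 and 4537 in the saline library, and 1611 and 1919 against 950 and 3574 in the uninjured library, while the mucin counts stayed the same. The mucins' log2 ratios on the CPM + 5 scale were 3.25 for Muc1, 6.85 for Muc4, 4.71 for Muc15 and 4.05 for Muc20 in the losartan library. They were 4.17, 7.10, 4.19 and 5.01 in the saline library for the same genes. In the uninjured library they were 0.92, 6.48, 4.31 and 4.2.

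A finer division of the score showed that Muc15 peaked below the top. Muc4 in deciles 7, 8, 9 and 10 of the losartan score was at 44.1, 200.3, 666.7 and 1566 CPM. In the saline library the same deciles held 22.3, 97.2, 422.6 and 1815 CPM, and in the uninjured library 22.5, 114.0, 408.3 and 2285 CPM. Muc4 therefore climbed to the last step in each library. Muc15 held 124.9, 204.2, 209.2 and 149.8 CPM in deciles 7 to 10 of the losartan library. It held 96.3, 150.9, 161.4 and 82.3 CPM in those of the saline library and 65.9, 180.03, 259.0 and 164.2 CPM in those of the uninjured library. The highest decile was thus below the ninth for Muc15 in all 3 libraries. The ratio of decile 10 to decile 9 was 0.72 (0.66 to 0.78) for Muc15 in the losartan library, 0.51 (0.46 to 0.57) in the saline library and 0.63 (0.61 to 0.66) in the uninjured library. For Muc4 it was 2.35 (2.27 to 2.43), 4.30 (4.12 to 4.48) and 5.60 (5.46 to 5.74). Muc20 gave 2.04 (1.84 to 2.27), 3.31 (3.04 to 3.6) and 6.48 (5.94 to 7.07), and Muc1 2.15 (1.88 to 2.46), 3.52 (3.19 to 3.88) and 3.38 (2.48 to 4.68). Muc16 gave 1.03 (0.63 to 1.68) in the losartan library and 3.14 (1.26 to 8.84) in the saline library, from 34 and 38 UMIs and from 19 and 7 UMIs.

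**Figure D2:**
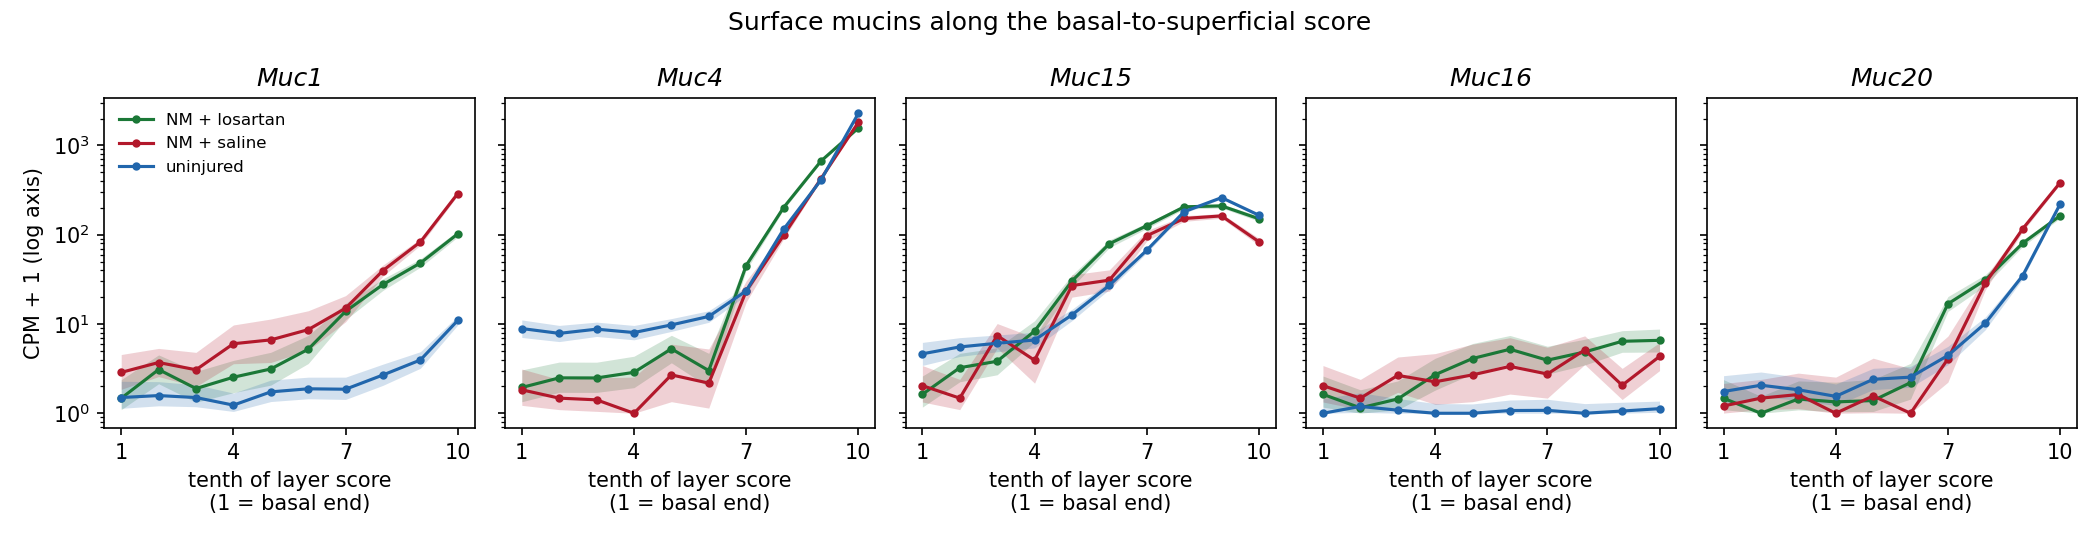
Level of each mucin in deciles of the layer score, from the basal end (1) to the superficial end (10), as CPM + 1 on a log axis; lines are the 3 libraries and shading is the 95% interval for counting error. Muc4, Muc20 and Muc1 climb to decile 10, Muc15 turns down after decile 9 in all 3 libraries, and Muc16 stays low throughout.

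The clusters, made without the 5 mucins, gave the same order of layers in uninjured epithelium. Cluster 9, superficial-like with Asprv1, Ly6g6c and Krt78 among its leading genes, had 2309 CPM of Muc4 (2289 to 2328), 225.1 CPM of Muc20 (219.1 to 231.3) and 9.89 CPM of Muc1 (8.67 to 11.2). Clusters 15, 13 and 5, all wing-like, had 811, 205 and 40.6 CPM of Muc4. The same clusters had 271.5, 215.1 and 171.5 CPM of Muc15, each above the 156.3 CPM of cluster 9. The ratio of cluster 9 to cluster 13 was 11.3 (10.9 to 11.7) for Muc4, 14.4 (12.7 to 16.4) for Muc20 and 0.73 (0.69 to 0.76) for Muc15. Cluster 15 had a median of 4573 UMIs per cell against 23459 in cluster 9, and whether depth bears on its mucin levels was not tested.

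Cluster 10, basal-like with the limbal marker Gpha2 among its leading genes, had 106.6 CPM of Muc4 (99.9 to 113.7), 4.94 CPM of Muc1 (3.57 to 6.65) and 8.49 CPM of Muc20 (6.67 to 10.7). These values came from few cells. Of its 850 cells, 12 held 50% of its 929 Muc4 UMIs, and 1 cell held 116 of them. Its 82 cells in the upper tercile were at 671.6 CPM of Muc4 (623.9 to 722.1) and held 78.9% of the cluster's Muc4 UMIs, 67.4% of its Muc1 UMIs and 75.7% of its Muc20 UMIs. Its 612 cells in the lower tercile were at 8.69 CPM of Muc4 (6.45 to 11.5), close to the 6.79 CPM (5.75 to 7.97) of the basal-like cluster 1. Cluster 1 had 0.090 CPM of Muc1 and 0.85 CPM of Muc20.

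In the injured libraries most Muc1, Muc4 and Muc20 UMIs lay in cluster 6, led by Sprr2f, Ltf, Krt23 and Krt19. It held 86 of 169 losartan and 44 of 76 saline UMIs of Muc16. Of Muc15 it held 3812 of 5046 losartan and 2330 of 2633 saline UMIs. This cluster had 380 saline, 660 losartan and 1 uninjured cell. Muc4 was at 732.3 CPM (720.9 to 743.8) in its losartan cells and 760.1 CPM (747.4 to 772.9) in its saline cells, against 2309 CPM in uninjured cluster 9. The saline-to-uninjured ratio of these clusters was 0.33 (0.32 to 0.34) for Muc4, 0.76 (0.73 to 0.80) for Muc20, 0.83 (0.79 to 0.87) for Muc15 and 13.5 (11.8 to 15.5) for Muc1. The losartan-to-uninjured ratio was 0.32 (0.31 to 0.32), 0.38 (0.36 to 0.40), 1.14 (1.08 to 1.19) and 5.54 (4.81 to 6.40) for the same genes. Cluster 6 is an epithelial cluster whose cells also reach down the score, so it is not the counterpart of cluster 9 alone. Clusters 4 and 16, basal-like, had 3.33 and 1.74 CPM of Muc4 in the losartan library and 2.81 and 0.78 CPM in the saline library.

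**Figure D3:**
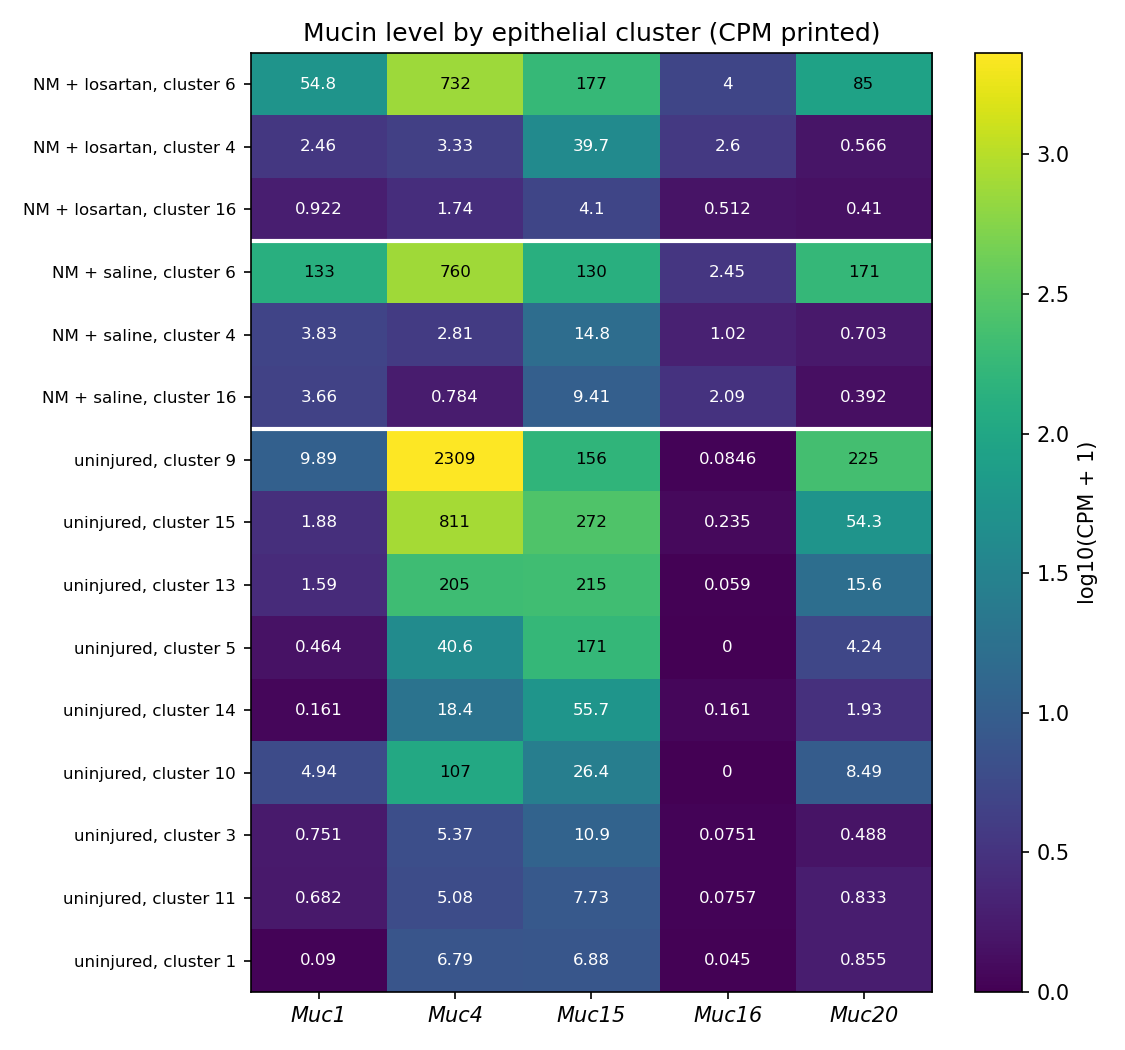
Level of each mucin by epithelial cluster and library, with the CPM printed and the colour showing log10(CPM + 1). Uninjured cluster 9 holds the highest Muc4 and Muc20, uninjured clusters 15, 13 and 5 hold Muc15 above that of cluster 9, and cluster 6 of the 2 injured libraries holds the highest Muc1.

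Saline-treated injured epithelium had more Muc1 than uninjured epithelium. Over all epithelial-like cells Muc1 was at 60.1 CPM (57.7 to 62.5) in the saline library and 2.64 CPM (2.37 to 2.92) in the uninjured library, a ratio of 22.8 (20.4 to 25.5). In the upper tercile the ratio was 24.3 (21.6 to 27.4). Muc20 was also higher, at 74.9 CPM (72.3 to 77.6) in the saline library and 43.9 CPM (42.8 to 45.1) in the uninjured library, a ratio of 1.71 (1.63 to 1.78). Muc4 was lower, at 332.0 CPM in the saline library and 464.3 CPM in the uninjured library (ratio 0.72, 0.70 to 0.73), and Muc15 was at 63.8 CPM and 89.1 CPM (ratio 0.72, 0.69 to 0.75). Muc16 was at 1.84 CPM in the saline library and 0.066 CPM in the uninjured library, a ratio of 28.0 (14 to 63.6) that rests on 9 uninjured UMIs. By the 1.5-fold rule 2 mucins were higher, Muc1 and Muc20, and 0 were lower, where 19.8% of measured genes were higher and 17.1% lower with a median log2 ratio of 0.03. In the upper tercile 3 were higher, Muc1, Muc16 and Muc20, and 0 lower, against 17.3% and 24.3% of measured genes. The direction turned for Muc20 with clusters in place of terciles (log2 ratio −0.38) and for Muc16 with cells thinned to 1500 UMIs (−0.061). Muc16 stayed under 10 CPM and passed the fold in 7 of 14 alternatives. Muc4 in the upper tercile, at a log2 ratio of −0.53, kept its sign in 12 of 14 alternatives and was at 0.04 with thinning. Muc4 over all epithelium was at a log2 ratio of −0.48, against 0.01 with thinning, and Muc15 at −0.45, against −0.85 with thinning, which passes the fold.

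Losartan-treated injured epithelium stood between the other libraries for Muc1 and, in the summed counts, below both for Muc4 and Muc20. Muc1 over all epithelial-like cells was at 20.6 CPM (19.4 to 21.7) in the losartan library and 2.64 CPM in the uninjured library, a ratio of 7.80 (6.93 to 8.79). Muc4 was at 258.6 CPM (254.6 to 262.6) in the losartan library and 464.3 CPM in the uninjured library, a ratio of 0.56 (0.55 to 0.57). Muc20 was at 30.1 CPM in the losartan library and 43.9 CPM in the uninjured library (ratio 0.69, 0.65 to 0.72), and Muc15 at 82.3 CPM and 89.1 CPM (ratio 0.92, 0.89 to 0.95). Muc16 was at 2.76 CPM and 0.066 CPM, a ratio of 41.9 (21.6 to 93.3). By the 1.5-fold rule 2 mucins were higher, Muc1 and Muc16, and 1 was lower, Muc4. Among measured genes 15.1% were higher and 19.6% lower, with a median log2 ratio of −0.04. In the upper tercile alone the count was also 2 higher and 1 lower, against 13.4% and 27.2% of measured genes. The lower one, Muc4, was at a log2 ratio of −0.59, just past the fold, and passed it in 3 of 14 alternatives, which gave −1.65 to −0.08. Muc16 was under 10 CPM in each of these groups and so is not among the measured genes. Averaging CPM over cells with equal weight, or thinning all cells to 1500 UMIs, left 0 mucins lower. Muc4 then had a log2 ratio of −0.17 and −0.08, against −0.83 in the summed counts. Muc20, at −0.48 in the summed counts, was at 0.23 with equal weight per cell and −0.0028 with thinning.

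The losartan library had less Muc1 and less Muc20 than the saline library. Muc1 was at 20.6 CPM in the losartan library and 60.1 CPM in the saline library, 2.92-fold lower (2.73 to 3.13). Muc20 was at 30.1 CPM and 74.9 CPM, 2.49-fold lower (2.35 to 2.63). Muc4 was 1.28-fold lower (1.25 to 1.31) and Muc15 1.29-fold higher (1.23 to 1.35) in the losartan library. In the upper tercile the losartan-to-saline ratio of Muc4 was 0.96 (0.93 to 0.98). That tercile held 35.5% of epithelial UMIs in the losartan library and 43.8% in the saline library. Over all epithelium the Muc4 log2 ratio was −0.35 in the summed counts and −0.085 with thinning. By the 1.5-fold rule 2 mucins were lower, Muc1 and Muc20, and 0 higher. Among measured genes 5.72% were lower and 2.03% higher, with a median log2 ratio of −0.08. Muc15 passed the fold with equal weight per cell and with thinning, at log2 ratios of 0.82 and 1.08 against 0.34 in the summed counts. The upper tercile gave the same counts, 2 lower and 0 higher, against 7.32% and 3.02% of measured genes. Within cluster 6, which holds cells of both injured libraries, the losartan-to-saline ratio was 0.41 (0.38 to 0.44) for Muc1, 0.50 (0.47 to 0.53) for Muc20, 0.96 (0.94 to 0.99) for Muc4, 1.37 (1.30 to 1.44) for Muc15 and 1.63 (1.12 to 2.41) for Muc16. In the lower tercile no mucin reached 10 CPM in any library. Of the mucins, 0 were higher than in the uninjured library by the 1.5-fold rule, both with losartan (17.3% of measured genes higher, 20.8% lower) and with saline (22.4% and 18.9%). Muc4 fulfilled the rule for lower in both, but its uninjured value of 7.26 CPM was at the level of uninjured fibroblast-like cells, so it is not read as a difference in epithelial Muc4. Between losartan and saline 0 were higher and 0 lower (2.16% and 4.32%). The comparisons of each injured library with the uninjured library share the uninjured cells.

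Markers of neighbouring conjunctival epithelium and of leukocytes stood in the same order of libraries as Muc1. The conjunctival list held 14 genes, and its summed level in the upper tercile was 4338 CPM in the losartan library, 10627 CPM in the saline library and 2165 CPM in the uninjured library. Krt19, a keratin of simple and conjunctival epithelium, was at 961, 2774 and 79.3 CPM. Krt7 was at 403, 1466 and 13.3 CPM, and Ltf, the tear protein lactoferrin, at 306, 1204 and 2.65 CPM. Krt13 was at 2574, 4959 and 2055 CPM and Krt8 at 85.5, 214 and 1.94 CPM. The goblet-cell genes Muc5ac, Muc5b, Spdef, Tff1, Tff3, Clca1 and Bpifa1 were each under 1 CPM in the upper tercile of all 3 libraries, with Tff3 and Bpifa1 at 0. Fcgbp, a goblet-cell gene, ran the other way over all epithelial-like cells, not the upper tercile alone. It was at 1.70 CPM in losartan, 0.90 CPM in saline and 11.98 CPM in uninjured epithelium. Over whole epithelium, 4 of 6 measured conjunctival genes were higher and 1 lower with losartan than uninjured (15.1% and 19.6% of all measured genes), and 5 of 6 were higher and 1 lower with saline (19.8% and 17.1%). The medians were 3.05 and 4.62, against −0.04 and 0.03 over all measured genes.

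The 14 neutrophil markers summed to 133.0 CPM in the losartan, 299.4 CPM in the saline and 9.34 CPM in the uninjured upper tercile. Most of this was S100a9, an alarmin subunit, at 79.8, 178.1 and 7.56 CPM, and Il1r2, a decoy receptor for interleukin 1, at 25.4, 59.96 and 1.09 CPM, while Cxcr2, Csf3r and Ly6g were each under 1 CPM. The 13 macrophage or monocyte markers summed to 2129, 3546 and 254.2 CPM, of which Arg1, an arginase, gave 2060, 3426 and 229.7 CPM. C1qa, C1qb, C1qc, Adgre1, Csf1r and Mrc1 were each under 1 CPM. The 8 limbal markers summed to 6987, 10454 and 4707 CPM, mostly from Krt15, a basal keratin, at 5482, 7486 and 2935 CPM. The part of cells of these kinds in the mucin differences was not tested.

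Shares of cells with a UMI were compared after expressing each cell at 1500 UMIs. In the upper tercile Muc4 was then expected in 42.3% (38.3 to 46.3) among 615 losartan cells, in 39.0% (33.7 to 44.4) among 339 saline cells and in 42.5% (40.7 to 44.3) among 2972 uninjured cells. Cells below that depth, 37, 35 and 314 in number, were left out. The unthinned shares were 69.9%, 61.0% and 60.3%. The 3 intervals for Muc4 overlap, although its level in CPM was lower in both injured libraries.

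Muc1 was expected in 7.70% (5.67 to 10.0) of losartan, 15.9% (12.2 to 20.3) of saline and 0.71% (0.44 to 1.08) of uninjured upper cells. Its unthinned shares were 38.5%, 55.6% and 5.75%. Muc20 was expected in 11.1% (8.69 to 13.8), 19.4% (15.4 to 24.1) and 10.4% (9.35 to 11.6), with unthinned shares of 41.0%, 53.7% and 33.9%. For Muc20 the saline library had the highest share. Muc15 was expected in 22.8% (19.5 to 26.3), 14% (10.6 to 18.3) and 24.3% (22.8 to 25.9), with unthinned shares of 74.7%, 57.0% and 69.9%. For Muc15 the saline library had the lowest share. Muc16 was expected in 1.01% (0.36 to 2.11), 0.37% (0.01 to 1.63) and 0.010% (0 to 0.12), with unthinned shares of 7.98%, 5.88% and 0.12%.

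In the lower tercile the expected shares were at most 0.33% in the losartan library and 0.32% in the saline library, both for Muc1, and 1.30% in the uninjured library, for Muc4. Neutrophil-like cells, which should lack Muc4, gave 1.67% (1.04 to 2.49) in the losartan library and 0.24% (0.10 to 0.49) in the saline library at the same depth, with median depths of 2615 and 3964 UMIs. Uninjured stromal fibroblast-like cells gave 1.05% (0.30 to 2.75) at a median depth of 10983 UMIs. Lower-tercile Muc4 was therefore not above the level seen in cells that should lack it in any of the 3 libraries.

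**Figure D4:**
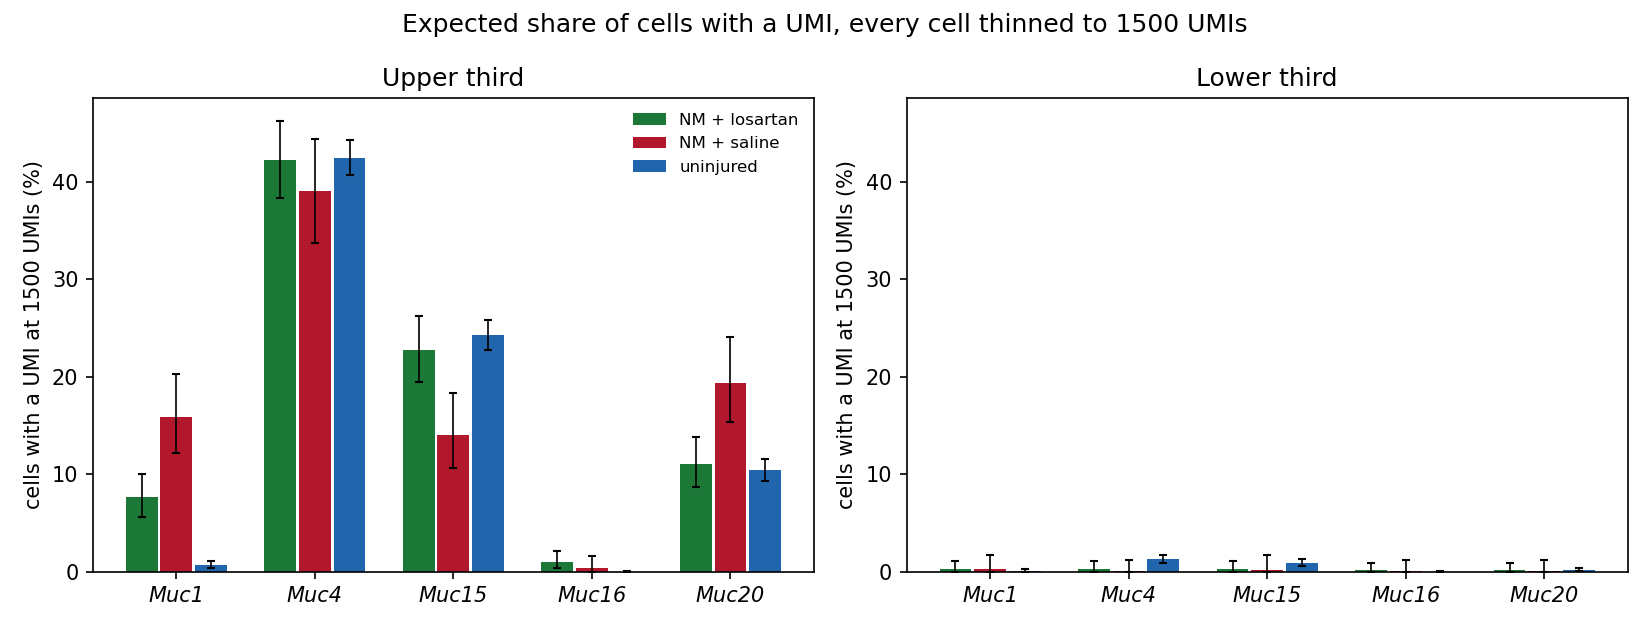
Expected share of cells with at least 1 UMI of each mucin when every cell is taken at 1500 UMIs, in the upper (left) and lower (right) tercile; bars are the 3 libraries and error bars are 95% intervals for counting error. The Muc4 bars lie between 39.0% and 42.5% on the left, Muc1 and Muc20 are tallest in the saline library, and no bar on the right passes 1.30%.

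In all 3 libraries a small part of the cells held 50% of the UMIs of each of these mucins. Of 1124 saline epithelial-like cells, 35 held 50% of the Muc1 UMIs, 34 those of Muc4, 37 those of Muc20 and 45 those of Muc15. Of 1957 losartan cells the numbers were 43, 62, 45 and 142, and of 9858 uninjured cells 58, 270, 219 and 603. The highest count in a single cell was 386 UMIs of Muc4 in the saline library, 334 in the losartan library and 328 in the uninjured library. For Muc16, 1 saline cell held 17.1% of its 76 UMIs.

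The mucins met in the same cells to different degrees. At 10000 UMIs per cell, 94.3% of the Muc20-positive upper cells of the losartan library also had Muc4, as did 92.0% in the saline library and 96.1% in the uninjured library. Over all upper cells Muc4 was expected in 68.7%, 65.0% and 64.7%. Muc1-positive cells had Muc4 in 89.0%, 86.5% and 92.5%. Muc15-positive cells had Muc4 in 67.4%, 62.9% and 67.0%, close to the share over all upper cells. These shares describe cells of 1 library each and depend on the depth chosen.

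The enzymes and partners of the mucins were described from fixed lists. Of the O-glycosylation enzymes, 6 of 18 measured were higher and 7 lower in the upper tercile of the losartan library, 6 and 8 of 17 in the saline library, and 4 and 4 of 13 in the uninjured library. Their median log2 ratios were 0.04, −0.04 and 0.13, against −0.64, −0.62 and −0.44 over all measured genes. Of all measured genes 13.6%, 14.2% and 10.9% were higher and 52.3%, 51.2% and 40.9% lower. St6galnac1, which caps the Tn antigen with sialic acid, was at 82.2 CPM in the upper and 1.01 CPM in the lower tercile of the losartan library. It was at 64.1 and 0.24 CPM in the saline library and at 305.5 and 77.0 CPM in the uninjured library. The uninjured lower tercile, where no mucin passed 7.26 CPM, thus lay between the upper terciles of the injured libraries for St6galnac1. Galnt3, which starts O-glycan chains, was at 250.6 CPM in the upper and 93.5 CPM in the lower tercile of the saline library and at 183.3 and 52.0 CPM in the uninjured library. C1galt1, the core 1 synthase, was at 30.1 CPM over all losartan epithelium, 47.2 CPM over saline epithelium and 6.0 CPM over uninjured epithelium. Against uninjured epithelium, 6 enzymes were higher and 4 lower of 16 in the losartan library, and 7 and 4 of 17 in the saline library, with medians of 0.08 and 0.10 against −0.04 and 0.03 over all measured genes. Of all measured genes 15.1% were higher and 19.6% lower with losartan, and 19.8% and 17.1% with saline.

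Of the glycocalyx and membrane partners, 4 of 16 measured were higher and 8 lower in the upper tercile of the losartan library, 3 and 8 of 16 in the saline library, and 3 and 4 of 13 in the uninjured library (median log2 ratios −0.70, −0.78 and −0.07, against −0.64, −0.62 and −0.44 over all measured genes). The shares of all measured genes were 13.6%, 14.2% and 10.9% higher and 52.3%, 51.2% and 40.9% lower, so the lower share of this list was near that of all genes in the injured libraries. Slc9a3r1, a scaffold that ties membrane proteins to the actin linker ezrin, was at 273.0 CPM in the upper and 63.1 CPM in the lower tercile of the losartan library. It was at 305.7 and 71.4 CPM in the saline library and at 115.6 and 24.4 CPM in the uninjured library. Msn, which encodes moesin, a linker of the membrane to actin, ran the other way. It was at 22.1 CPM in the upper and 364.3 CPM in the lower tercile of the losartan library and at 64.2 and 590.4 CPM in the saline library. Over all uninjured epithelium it was at 1.87 CPM, against 189.4 CPM over losartan and 324.9 CPM over saline epithelium. Erbb2, the receptor that Muc4 binds, was at 16.4 CPM in losartan, 17.5 CPM in saline and 38.0 CPM in uninjured epithelium.

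Of 8 measured sheddases and related proteases, 3 were higher and 2 lower in the upper tercile of each injured library, and 1 and 2 of 7 in the uninjured library (medians 0.16 with losartan, 0.26 with saline and −0.33 uninjured, against −0.64, −0.62 and −0.44 over all measured genes). Of all measured genes 13.6%, 14.2% and 10.9% were higher and 52.3%, 51.2% and 40.9% lower, and the uninjured count of 1 higher was near that share. Bace2, a membrane aspartyl protease, was at 86.2 CPM in the upper and 11.2 CPM in the lower tercile of the losartan library, at 98.5 and 10.9 CPM in the saline library and at 40.1 and 3.35 CPM in the uninjured library. Adam8 was at 43.0 CPM in losartan, 63.5 CPM in saline and 0.60 CPM in uninjured epithelium. Adam17, the sheddase of many surface proteins, was at 54.8, 50.7 and 65.6 CPM. Among the tight junction genes outside the layer markers, 9 of 10 were higher and 0 lower in the upper tercile of each injured library, and 6 higher and 1 lower in the uninjured library, with medians of 1.21, 1.27 and 0.69, set against the shares and medians of all measured genes given for the proteases. Claudin 3 (Cldn3) was at 449.7 CPM in the upper and 27.4 CPM in the lower tercile of the losartan library and at 217.6 and 6.47 CPM in the uninjured library.

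Of the regulators of epithelial differentiation, 7 of 21 measured were higher and 4 lower in the upper tercile of the losartan library, 8 and 4 of 21 in the saline library, and 4 and 3 of 20 in the uninjured library (medians 0.32, 0.33 and 0.15, against −0.64, −0.62 and −0.44 over all measured genes). Among all measured genes 13.6%, 14.2% and 10.9% were higher and 52.3%, 51.2% and 40.9% lower. Elf3, an ETS factor of differentiating epithelia, was at 1252 CPM in the upper and 59.3 CPM in the lower tercile of the losartan library, at 1547 and 46.5 CPM in the saline library and at 1035 and 136.0 CPM in the uninjured library. Pax6, the eye-field factor that keeps corneal identity, was at 94.8 CPM in losartan, 84.4 CPM in saline and 363.0 CPM in uninjured epithelium. Among the other mucin and mucin-like genes, 14 of 16 symbols were in the files. Cd164, a sialomucin, was the only one that reached 10 CPM in any of these comparisons, at 128.9 CPM in losartan, 121.8 CPM in saline and 249.1 CPM in uninjured epithelium.

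The genes most like each mucin were taken from 9 units, the 3 terciles of the 3 libraries, as the highest Pearson correlations of log2(CPM + 5) among 9769 genes. The units share libraries and the score, so the correlations are descriptions. Muc1 was nearest to Il18r1 (r = 0.994), Dnajb3 (0.99), Ifngr1 (0.989), Il1r2 (0.988) and Pglyrp4 (0.985). Muc4 was nearest to Mab21l4 (0.996), Enpp3 (0.994), Asprv1 (0.992), Zdhhc9 (0.991) and Sept5 (0.99). Muc20 was nearest to Adgrf1 (0.996), Nccrp1 (0.994), Enpp3 (0.992), Itgam (0.992) and Mab21l4 (0.991), and its correlation with Muc4 was 0.984. Muc15 was nearest to Ormdl2 (0.994), Jup (0.983), Gm20219 (0.982), Mpzl3 (0.98) and Clic3 (0.979). Muc16 was under 10 CPM in all 9 units and was left out. Pglyrp4 encodes a secreted protein that binds bacterial cell walls. Its upper tercile was at 53.1 CPM in the losartan, 100.5 CPM in the saline and 8.68 CPM in the uninjured library. Muc1 stood in the same order, which follows from choosing Pglyrp4 by its likeness to Muc1.

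Outside the epithelium no mucin passed 23.9 CPM in any class of at least 20 cells. Neutrophil-like cells of the losartan library had 12 CPM of Muc4 (8.70 to 16.1), 4.63% of the epithelial level, and those of the saline library 1.59 CPM (0.96 to 2.49), 0.48% of it. For Muc1 the neutrophil-like cells had 1.63 CPM in the losartan library and 0.84 CPM in the saline library, from 6 and 10 UMIs, which was 7.94% and 1.40% of the epithelial level. Muc16 gave 0 and 1 UMI in the same cells. In the uninjured library Muc4 was at 23.9 CPM (8.78 to 52.1) in 87 Schwann-like cells, from 6 UMIs, and at 14.1 CPM (6.77 to 25.9) in 121 mural-like cells, from 10 UMIs. Muc1 there rested on 1 UMI in each, at 3.99 CPM (0.10 to 22.2) and 1.41 CPM (0.036 to 7.86), intervals that both include the epithelial level of 2.64 CPM. Whether these UMIs came from free RNA was not tested.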

How the data were processed

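Per the file headers, the deposited values are whole-number UMI counts per gene and barcode, written with Cell Ranger 8.0.0, and the submitters' processing notes name GRCm38. The files hold 5887 (losartan), 6814 (saline) and 13270 (uninjured) called barcodes. Cells with at least 500 genes and at most 20% mitochondrial UMIs were kept, and doublets were scored against 2 simulated doublets per cell and removed at 0.8% per 1000 barcodes. Clustering used 2000 variable genes without the 5 mucins, 30 principal components, 20 neighbours and Leiden resolution 0.8 (leidenalg 0.10.2), with no batch correction. Names came from fixed markers. Cluster 12, with 748 shallow uninjured cells, stayed unnamed and out. The layer score is the mean z-score of up to 12 superficial minus that of 11 basal markers seen in at least 5% of cells.

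UMI counts were summed per library and tercile. CPM carry exact Poisson intervals, ratios exact conditional binomial intervals and shares Clopper-Pearson intervals, all 95%. Thinned shares are exact expected values of drawing 1500 UMIs per cell without replacement, with the interval taken at the rounded expected number of cells. Computation used Python 3.11.15 and scipy 1.17.1, and the procedure was tested on simulated data. All 5 mucins were named throughout, with the 5 genes most like each, and of each list genes among the 2 highest or 2 lowest in a comparison. Members and lists were chosen with earlier results of these data known. The alternatives tried were another scaling, pseudocount and filter, other depth and doublet rules and other layer definitions.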

Additional observations from a re-analysis of the deposited data

Results flagged for a closer look

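In the summed counts Muc20 differed from uninjured epithelium in opposite directions in the injured libraries. Over all epithelial-like cells the ratio to the uninjured library was 0.69 in the losartan library and 1.71 in the saline library. The upper-tercile ratio was 0.81 in the losartan library and 1.66 in the saline library. Over all epithelium the losartan ratio passed 1.5-fold in 0 of 10 alternatives, and its log2 ratio was 0.23 with the mean over cells and −0.0028 with cells thinned to 1500 UMIs, against −0.48 in the summed counts. Within the upper tercile it passed in 1 of 14 alternatives and was at 0.22 with the mean over cells. The saline ratio passed in 10 of 10 alternatives over all epithelium and in 13 of 14 in the upper tercile, where clusters in place of terciles gave −0.38. Both rest on 1 library per group and share the uninjured cells, and the difference was not tested.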

How the results depend on the processing

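No paired analysis was possible because each group had 1 library. Of 144 alternative counts of mucins past 1.5-fold, 135 equalled the main count or stayed within 1.5 times it. These include main counts of 0 that stayed 0, and the rule can pass a count that changed by 1 mucin. The levels behind these counts were less stable. Among the alternative log2 ratios of the mucins, 520 were rated the same as the main value and 258 as moved. A further 2 were rated as reversed, a label that does not cover every change of sign. The 30 alternative shares of cells were all rated as moved, but they took cells at 10000 UMIs or unthinned in place of 1500 UMIs. A share of cells with a UMI rises with depth, so this rating cannot show whether the shares were stable. Over all losartan epithelium, Muc15 was expected in 10.2% of cells at 1500 UMIs and in 33.8% at 10000 UMIs. Its unthinned share there was 38.3%. Saline against uninjured epithelium had 1 mucin lower (Muc15) with a mean over cells and with cells thinned to 1500 UMIs, and 1 lower (Muc4) with the stricter filter (1000 genes, 10% mitochondrial) and without the 5 cells richest in each mucin. Losartan against uninjured had 0 lower with the mean over cells and with thinning, and 1 higher (Muc1) without those 5 cells. Losartan against saline had 1 higher (Muc15) with the mean over cells and with thinning. Over all genes that comparison had 164 higher and 462 lower in the summed counts, 283 higher with the mean over cells, and 349 higher and 898 lower with thinning. The cause was not tested. In the upper tercile, saline against uninjured, Muc16 turned to a log2 ratio of −0.061 with thinning, and Muc20 to −0.38 with clusters in place of terciles. Losartan against uninjured, the lower upper-tercile Muc4 passed the fold in 3 of 14 alternatives. The higher Muc1 in both injured libraries and the lower Muc1 and Muc20 with losartan kept direction and fold in all 10 alternatives over whole epithelium. Leaving out the 5 cells and 2 other alternatives, cluster 12 counted as epithelial and cells over 100000 UMIs left out, were chosen after seeing the data. Low UMI counts limit Muc16 and every lower-tercile value.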
